A study of Mus musculus with 50 samples.

Results

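The 10 immediate early response genes described here are Fos, Fosb, Jun, Junb, Atf3, Egr1, Egr2, Egr3, Ier2 and Nr4a1. They were chosen by name, and for each the probe set that maps to that gene alone was used, the one with the highest mean where there were several. All 10 had exactly 1 such probe set, and all 10 were among the 18045 genes tested out of 22180 genes named on the array. RNA came from 50 mammary tumour biopsies, 1 array each, taken before drug treatment. The tumours arose spontaneously in female backcross mice, bred from a C57BL/6J x FVB/NJ hybrid and an FVB/NJ parent with the MMTV-Erbb2 transgene. In every mouse ErbB2, a receptor tyrosine kinase, is expressed in mammary epithelium from the MMTV (mouse mammary tumour virus) promoter, and there is no tumour without the transgene and no normal gland among the samples. By the labels the 50 tumours form a single group, with no age, batch or time between excision and freezing given. The later drug is named in 2 ways (doxorubicin in the title, docetaxel in the treatment field), and nothing here depends on it.

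Immediate early genes are transcribed within minutes of a stimulus without new protein synthesis. Growth factors reach them through ERK, which phosphorylates ternary complex factors bound beside serum response factor, and calcium, cyclic AMP and cell stress reach them through CREB, JNK and p38. Fos and Jun proteins pair into the AP-1 factor, the Egr proteins are zinc-finger factors, Atf3 is a stress-induced repressor of the same bZIP class as Fos and Jun, Ier2 is a small nuclear protein, and Nr4a1 is an orphan nuclear receptor. In excised tissue these transcripts are also known to rise with warm ischaemia, dissection and dissociation.

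Promoter windows of 7 members were matched by gene identifier in RefSeq, build GRCm38.p6. Those of 5 members are shown with 1 of the Egr2 start sites. Fos, Junb, Atf3 and Jun are shown because each was called with the next among tumours, and Egr2 and Nr4a1 for their relations with matrix and proliferation genes. Each is the 250 bases before the start of the transcript, 5′ to 3′ on the gene's strand. Capitals mark matches on either strand to TGACG, the core of the cyclic AMP response element, to TGANTCA, the AP-1 site, or to the CArG box, which serum response factor binds. Windows are Fos at chr12:85473640-85473889 (+), Junb at chr8:84978749-84978998 (-), Atf3 at chr1:191183334-191183583 (-), Jun at chr4:95052223-95052472 (-), Nr4a1 at chr15:101266596-101266845 (+) and Egr2 at chr10:67537619-67537868 (+).
Fos: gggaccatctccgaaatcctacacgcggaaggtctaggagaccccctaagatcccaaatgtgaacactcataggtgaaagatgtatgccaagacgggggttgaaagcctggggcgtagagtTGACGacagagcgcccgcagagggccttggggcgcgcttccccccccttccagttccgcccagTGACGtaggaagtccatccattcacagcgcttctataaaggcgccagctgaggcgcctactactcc
Junb: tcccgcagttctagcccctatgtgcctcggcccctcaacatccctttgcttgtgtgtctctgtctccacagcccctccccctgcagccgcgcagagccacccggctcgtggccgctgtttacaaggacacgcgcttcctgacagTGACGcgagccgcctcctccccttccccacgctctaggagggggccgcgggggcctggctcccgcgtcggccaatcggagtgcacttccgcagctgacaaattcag
Atf3: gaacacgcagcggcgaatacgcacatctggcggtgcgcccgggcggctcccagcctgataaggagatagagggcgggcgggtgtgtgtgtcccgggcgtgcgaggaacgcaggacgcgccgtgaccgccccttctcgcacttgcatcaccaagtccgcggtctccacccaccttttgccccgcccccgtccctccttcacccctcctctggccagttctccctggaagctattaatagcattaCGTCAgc
Jun: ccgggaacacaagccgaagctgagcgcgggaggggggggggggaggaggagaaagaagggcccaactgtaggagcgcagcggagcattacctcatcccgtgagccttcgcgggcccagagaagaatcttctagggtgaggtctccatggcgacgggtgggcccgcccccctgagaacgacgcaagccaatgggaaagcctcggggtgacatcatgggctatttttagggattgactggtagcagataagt
Nr4a1: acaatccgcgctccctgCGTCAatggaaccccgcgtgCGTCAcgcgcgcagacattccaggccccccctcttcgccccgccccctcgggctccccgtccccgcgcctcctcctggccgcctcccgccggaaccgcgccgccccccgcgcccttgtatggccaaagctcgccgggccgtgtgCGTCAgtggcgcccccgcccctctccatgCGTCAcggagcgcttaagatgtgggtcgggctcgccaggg
Egr2: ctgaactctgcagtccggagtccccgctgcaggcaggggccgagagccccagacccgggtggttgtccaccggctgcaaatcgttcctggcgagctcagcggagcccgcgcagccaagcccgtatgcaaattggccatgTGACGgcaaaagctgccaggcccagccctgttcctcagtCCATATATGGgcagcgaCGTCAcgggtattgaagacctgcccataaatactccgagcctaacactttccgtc

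TGACG was found in the windows of 6 of the 7 members (the seventh, Jun, had none) and in 17.8% of the 32851 promoter windows in the table. Fos held 2 matches, the nearer at 66 to 62 bases before the start, and Nr4a1 held 4. The CArG box was found in 1.5% of all windows and, among members, in 4 of the 5 windows of Egr2, 3 of which overlap. TGANTCA was found in 6.7% of all windows and in none of the windows of the 7 members. A match is a run of letters and was not tested as a binding site.

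The values are RMA log2 expression as deposited, from 2.53 to 13.65, and the medians of the arrays lie between 5.19 and 5.34. In 3 tumours the array's mean correlation with all others was under 0.96, mid79 at 0.916, mid60 at 0.931 and mid100 at 0.954. These biopsies also differed in the tissue markers they carried. Epithelial Epcam averaged 11.42 ± 0.46 log2 (SD, n = 50) and fell to 8.61 in mid79, which had the highest scores for endothelial, adipocyte and T and NK cell genes. A score is the mean over a gene list of values standardised to SDs from each gene's mean. mid60 had the highest skin, NF-kB and heat shock scores, and mid100 the highest skeletal muscle, smooth muscle and macrophage scores. The effect of leaving out these 3 tumours is given beside the results it touched or with the other alternatives. In bulk RNA, fewer cells of a type and less RNA per cell cannot be told apart.

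All 10 genes varied more between tumours than the median tested gene. Their SDs ran from 0.35 to 1.0 log2 with a median of 0.45, against a median of 0.23 over all tested genes. Without mid60, mid79 and mid100 these medians were 0.41 and 0.21. The 5th and 95th percentiles lay at least 2-fold apart in 9 of 10 members and in 23.8% of all tested genes. Egr1 was the most variable. Its lowest value was 6.30 in mid47, its median 8.12 and its highest 10.05 in mid145, a mean of 8.18 ± 1.0 log2 (SD, n = 50). The 5th and 95th percentiles of Egr1 were 9.06-fold apart, and its SD exceeded that of 98.6% of tested genes. Its values spread over the whole range with no tumour apart from the rest.

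Among the AP-1 genes, Fos ranged from 6.13 in mid114 through a median of 7.43 to 9.18 in mid29. Its mean was 7.46 ± 0.68 log2 (SD, n = 50), with 4.35-fold between the 5th and 95th percentiles. Jun ranged from 7.18 in mid16 through 8.56 to 9.54 in mid60 (3.17-fold). Junb, a Jun protein that also pairs with Fos proteins, ranged from 7.22 in mid16 through 8.07 to 9.31 in mid60 (2.85-fold). Fosb, a second Fos protein, was lowest at 5.49 in mid16 and had a median of 5.97. Its highest values were 7.54 in mid75 and 7.02 in mid186, with the next at 6.83 in mid85. Atf3 ranged from 6.53 in mid125 through 7.01 to 9.19 in mid60, more than 1 log2 unit above mid131, the next highest at 8.10. Without the 3 tumours the SD of Atf3 was 0.37 in place of 0.47.

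Egr2 and Egr3 were the steadiest members. Egr2 ranged from 5.51 in mid115 through a median of 6.18 to 7.50 in mid60, and Egr3 from 4.97 in mid114 through 5.70 to 6.95 in mid111. In both genes mid60 and mid111 held the 2 highest values. Ier2 ranged from 6.11 in mid79 through 7.50 to 8.71 in mid26, with mid79 far below mid16, the next lowest at 7.02. Nr4a1 ranged from 7.14 in mid79 through 9.92 to 10.99 in mid26. Its low end was made by 3 tumours, mid79, mid54 at 7.76 and mid2 at 7.80. Leaving out mid60, mid79 and mid100 lowered its fold between percentiles from 5.48 to 3.50.

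**Figure D1:**
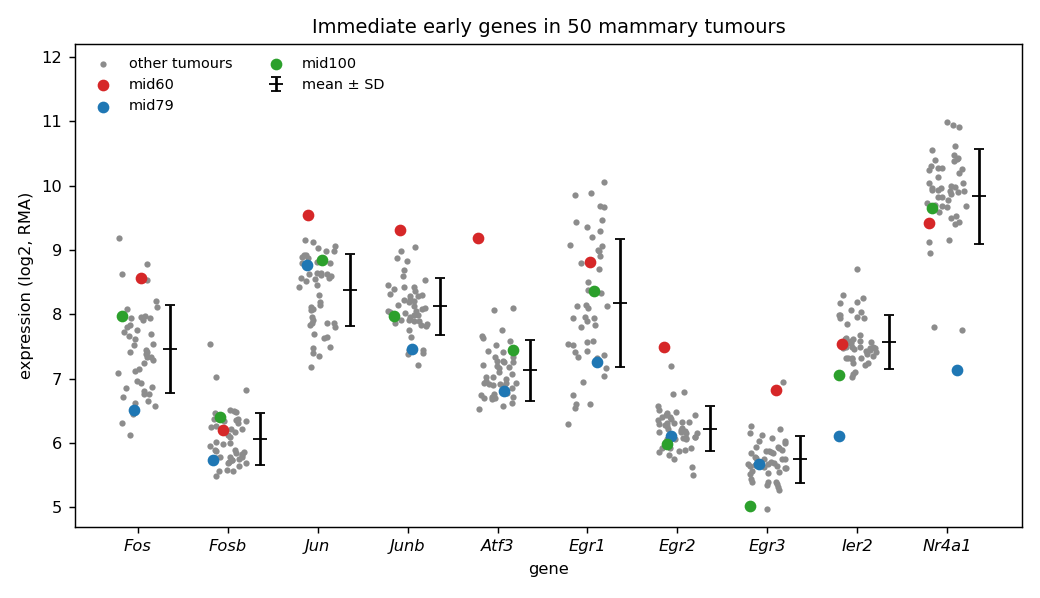
Expression (log2, RMA) of the 10 genes, 1 point per tumour, with mean ± SD (n = 50) beside each gene and the 3 tumours of low array correlation in colour. mid60 is the highest point of Jun, Junb, Atf3 and Egr2, and mid79 the lowest of Ier2 and Nr4a1, while Egr1 spreads from 6.30 to 10.05 without them.

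The mean of the 10 standardised genes was highest in mid60 (1.77 SDs), mid29 (1.12) and mid111 (0.94). mid60 and mid29 each had 9 of 10 genes above the gene's own median and 6 among that gene's 5 highest tumours. They did not carry the same tissue markers. mid60 stood first of 50 in the skin, NF-kB, heat shock and luminal scores and last in Erbb2, at 9.02 log2. mid29 was at 11.71 for Erbb2 and stood 7th in hypoxia and between 10th and 41st in the other list scores. The lowest means were those of mid79 (-1.23), mid16 (-0.93) and mid87 (-0.83). mid16 had the lowest heat shock score and mid87 the lowest hypoxia score of all tumours.

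**Figure D2:**
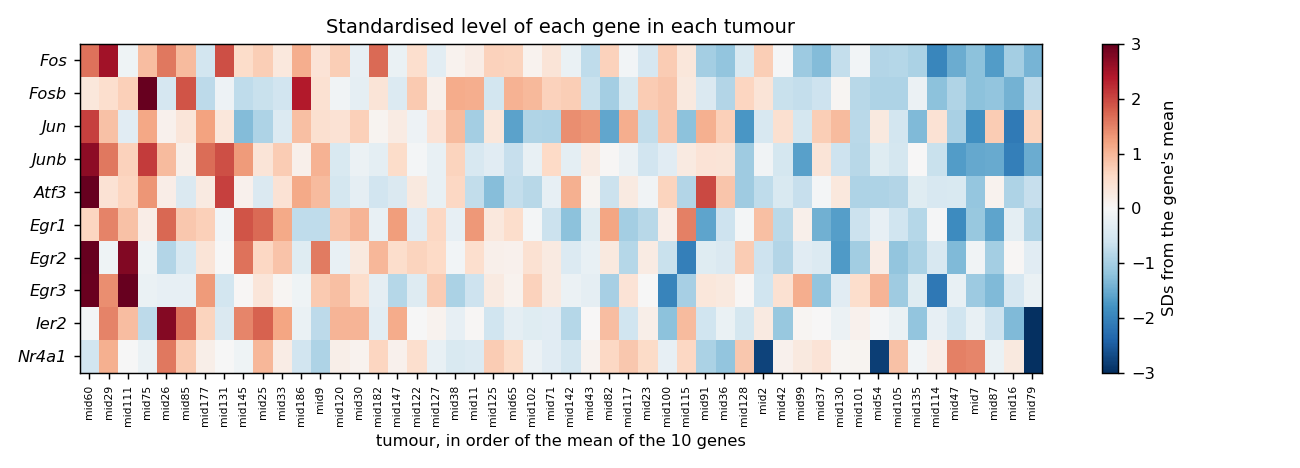
Level of each gene (rows) in each of 50 tumours (columns), as SDs from the gene's mean, with tumours in order of the mean over the 10 genes. mid60 and mid29, at the left, each have 9 of 10 genes above the gene's own median, and mid79, at the right end, has 1.

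The members did not vary as a block. Of 45 pairs 35 had a Pearson r above 0 and 7 had at least 0.5, and the median was 0.199 against 0.003 over all pairs of tested genes. To set each pair against the whole array, every tested gene was regressed on each member with limma (adjusted p over all genes, called under 0.05). Of 90 ordered pairs of members 19 were called, and 8 pairs were called both ways. The share of all genes called ran from 0% against Fosb to 23.4% against Nr4a1. Without mid60, mid79 and mid100 it ran from 0% against Fosb to 13.2% against Jun. In that setting 12 ordered pairs were called and 5 pairs both ways. Those 5 were Egr1 with Ier2, Egr1 with Fos, Fos with Junb, Junb with Atf3, and Atf3 with Jun, which makes a chain from Ier2 to Jun.

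Egr1 and Ier2 were the closest pair. Ier2 rose by 0.29 log2 per SD of Egr1 (SE 0.043, adjusted p = 7.53e-05 by limma), with r = 0.695, rho = 0.689 and r = 0.684 without the 2 tumours farthest in Egr1. Both permutation p values were 1e-05, the smallest possible, and the adjusted values over 235 relations were 0.000336 and 0.000587. Without mid60, mid79 and mid100 r was 0.765. Tumours mid26 and mid25 were among the 3 highest for both genes. Few other genes followed Egr1: limma called 14 of 18044 genes (0.0776%), and 2 of the 9 other members, Ier2 and Fos, were among them. Without the 3 tumours 32 genes were called against Egr1 (0.177%).

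Fos rose by 0.39 log2 per SD of Egr1 (SE 0.079, adjusted p = 0.0188 by limma, r = 0.567, rho = 0.563). Against Fos as predictor limma called 38 of 18044 genes (0.211%), with Junb and Egr1 as the 2 members. Junb rose by 0.27 per SD of Fos (SE 0.050, adjusted p = 0.00661, r = 0.604, rho = 0.518, and r = 0.532 without mid29 and mid131). Fosb had r = 0.507 and rho = 0.582 with Fos (adjusted permutation p = 0.00427 and 0.00094), and r = 0.494 without mid60, mid79 and mid100. By limma its slope on Fos did not pass (adjusted p = 0.0513), and no gene at all was called against Fosb. There 3 of 9 members and 949 of 18044 genes had an unadjusted p under 0.05.

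Jun and Atf3 made the other end of the chain. Atf3 rose by 0.30 log2 per SD of Jun (SE 0.052, adjusted p = 6.67e-05 by limma), with r = 0.627 and rho = 0.673, and r was 0.606 without mid16 and mid7. Junb rose by 0.30 per SD of Atf3 (SE 0.046, adjusted p = 1.84e-05, r = 0.684, rho = 0.659). These predictors carried far more of the array, 15.2% of genes for Jun and 13.5% for Atf3, so calls against them set the members less apart. The shares without the 3 tumours were 13.2% for Jun and 5.3% for Atf3. Jun and Egr1 gave r = -0.177 and rho = -0.227 (adjusted permutation p = 0.398 and 0.282). The lowest r of any pair was that of Jun with Nr4a1, -0.287 with rho = -0.388 (adjusted permutation p = 0.120 and 0.0450).

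Egr2 and Egr3 rose together over all tumours, with a slope of 0.22 log2 of Egr3 per SD of Egr2 (SE 0.042, adjusted p = 0.000804 by limma, r = 0.596). The relation rested in part on mid60 and mid111, without which r was 0.303 and no member was called against Egr2. In that setting 0.41% of all genes were called, against 9.33% over all tumours. There 3 of 9 members had an unadjusted p under 0.05 by limma. Spearman's rho over all tumours was 0.375 (adjusted permutation p = 0.0501). Ier2 and Nr4a1 were called both ways as well (r = 0.461, rho = 0.303), but r without mid79 and mid26, the 2 tumours farthest in Ier2, was 0.170. Against Ier2 6.38% of genes were called over all tumours and 0.0111% without mid60, mid79 and mid100. Atf3 and Egr2 had r = 0.398 with rho = 0.091, and r = 0.111 without the 3 tumours.

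**Figure D3:**
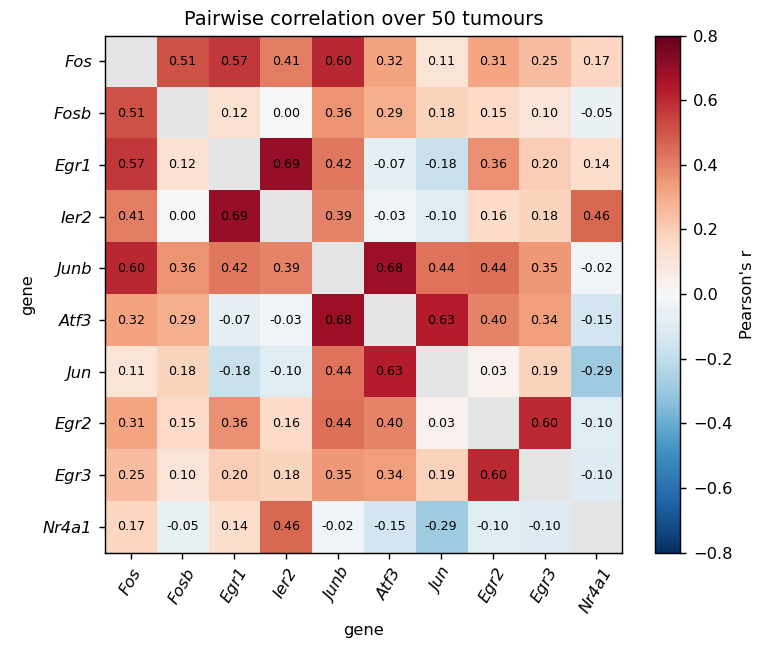
Pearson's r over 50 tumours for each pair of the 10 genes. The Egr1 and Ier2 cell (0.695), the Fos row with Junb and Egr1 (0.60 and 0.57), the block of Junb, Atf3 and Jun (0.44 to 0.68) and the Egr2 and Egr3 cell (0.60) stand out, and the Nr4a1 row is near or below 0 except with Ier2, Fos and Egr1.

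Of 81 genes in 5 further lists (other bZIP factors, other early genes, feedback genes, upstream kinases and factors, and AP-1 targets), 3 were called higher against Fos, where 0.0831% of all genes were, and none lower. Without mid79 alone 6 were called higher (0.172% of all genes), and without mid100 alone 5 were (0.2%). Rgs1, a regulator of G-protein signalling induced in activated leukocytes, rose by 0.51 log2 per SD of Fos (SE 0.075, adjusted p = 7.71e-05, r = 0.696). Zfp36, which binds and destabilises AU-rich mRNAs, rose by 0.31 (SE 0.059, adjusted p = 0.00899). Ccn1, a secreted matricellular protein, rose by 0.36 (SE 0.085, adjusted p = 0.0445). All 3 were called without mid60, mid79 and mid100 too, at adjusted p of at most 0.0391. Dusp1, the phosphatase that ends MAP kinase signals, had a slope of 0.26 (adjusted p = 0.0934) and Srf 0.10 (adjusted p = 0.209).

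Against Egr1 the called early genes were Zfp36 (0.37 log2 per SD, SE 0.051, adjusted p = 2.15e-05), Ccn1 (0.43), Rgs1 (0.44) and Per1 (0.36), a clock gene that CREB induces rapidly. The last 3 each had an adjusted p of 0.00705 by limma. Sgk1, a kinase that glucocorticoids and serum induce, rose by 0.28 (adjusted p = 0.0171). These 5 genes and the members Ier2 and Fos make up 7 of the 14 genes called against Egr1. Per1 had slopes of -0.13 on Jun (adjusted p = 0.324) and -0.15 on Atf3 (adjusted p = 0.239).

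Against Junb, where 1.88% of genes were called (1.11% higher and 0.776% lower), 8 of 29 other early genes and 4 of 9 other bZIP factors rose and none fell (6 and 3 without mid60, mid79 and mid100, where 0.859% of all genes were called higher). Rgs1 rose by 0.57 log2 per SD of Junb (SE 0.067, adjusted p = 2.01e-07), Klf6, a zinc-finger factor, by 0.30 (adjusted p = 0.000347) and Fosl2, a further Fos protein, by 0.24 (adjusted p = 0.00305). Socs3, a feedback inhibitor of cytokine receptors, rose by 0.20 (adjusted p = 0.000773). The median slope over the 29 early genes was 0.107, against -0.004 over all genes. Ppp1r15a, a phosphatase subunit induced in the integrated stress response, rose by 0.19 (SE 0.025, adjusted p = 2.95e-06).

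Against Atf3, where 6.71% of all genes were called higher and 6.82% lower, 10 of 15 AP-1 targets rose, with a median slope of 0.302 log2, against -0.004 over all genes. They included the collagenase Mmp13 (0.71 per SD, SE 0.107, adjusted p = 1.54e-05), the keratin Krt14 (0.51) and Mmp10 (0.13). The count was 4 of 15 without mid60, mid79 and mid100, where 2.64% of all genes were called higher. All 12 skin and squamous genes and 11 of 12 NF-kB target genes rose with Atf3 as well, and without those 3 tumours, at the same 2.64%, the counts were 0 and 1. mid60 alone held an Atf3 level above 9 log2, and its skin score was 6.46 and its NF-kB score 3.68.

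The genes most like the mean of the 10 members over 50 tumours, members aside, were ordered by Pearson's r as a description. Rgs1 came highest (r = 0.771, rho = 0.753, and r = 0.720 without mid60, mid79 and mid100). Bcl3, a nuclear partner of NF-kB, followed at 0.678, Tmod3, which caps actin filaments, at 0.648, and the cytokine Lif at 0.645. Next were Sbno2 (0.635), the ubiquitin ligase Rlim (0.619), the cytokine Osm (0.617), the kinase Csnk1e (0.615), Ccn1 (0.614) and Endod1 (0.613). Without the 3 tumours only Rgs1 and Ccn1 (0.686) stayed above 0.6 among these. The lowest were Hadh, a mitochondrial enzyme of fatty acid oxidation, at -0.590, Sort1 (-0.588), Gpatch11 (-0.580), Adcy6, an adenylyl cyclase (-0.572), and Acacb, an acetyl-CoA carboxylase (-0.570). For Hadh this was -0.385 without the 3 tumours.

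The first comparison asked whether the members follow stroma, using a score of 21 fibroblast and matrix genes. Egr2 rose and Nr4a1 fell with it, and the other 8 members did not pass, while 27.2% of all genes were called (12.1% higher and 15% lower). A count of 2 of 10 is thus near the share of the array. Egr2 rose by 0.17 log2 per SD of the score (SE 0.044, adjusted p = 0.00355 by limma, r = 0.473, rho = 0.486), and by 0.17 without mid60, mid79 and mid100 (adjusted p = 0.000748). Read the other way, 17 of 21 matrix genes rose with Egr2, led by Postn, Fn1 and Col1a1 at 0.70, 0.77 and 0.58 per SD, and 18 did without the 3 tumours. Against Egr2, 9.33% of all genes were called (5.87% higher and 3.46% lower), and 5.7% without the 3 tumours (3.71% higher). Nr4a1 had a slope of -0.29 (SE 0.094, adjusted p = 0.0171), which was -0.19 without mid79 alone (adjusted p = 0.105).

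Fos and Egr1 showed almost no slope on the matrix score. For Fos it was 0.05 log2 per SD (SE 0.096, adjusted p = 0.754) and for Egr1 0.01 (SE 0.139, adjusted p = 0.954). The standard errors allow a slope of either sign for both. Jun, Junb, Atf3, Fosb and Egr3 had slopes between 0.04 and 0.10 and Ier2 had -0.12 (adjusted p = 0.0894).

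Macrophage genes called more members. With macrophage genes, which include Csf1r and C1qa, Jun, Junb, Egr2 and Atf3 rose and Nr4a1 fell. That is 5 of 10 members where 27.5% of genes were called (11.7% higher and 15.8% lower), and 3 of 10 (Junb, Egr2 and Nr4a1) where 12.9% were called without mid60, mid79 and mid100. Junb rose by 0.17 log2 per SD in both. With endothelial genes Ier2 and Nr4a1 fell (2 of 10, against 34.9% of genes called and 20.5% lower) and with adipocyte genes the same 2 fell (28.9% called, 16% lower). Without the 3 tumours neither was called against those scores, where 8.32% and 1.31% of genes were, and Egr2 rose with endothelial genes by 0.13 (adjusted p = 0.0261). Ier2 and Nr4a1 fell with smooth muscle and pericyte genes as well (24.4% called, 13.2% lower). Without the 3 tumours Egr2 rose with these by 0.17 (adjusted p = 0.000797) and Nr4a1 fell by 0.26 (adjusted p = 0.0378). Ier2 and Nr4a1 rose with luminal epithelial genes (24.7%), and of these 2 members Nr4a1 was called without the 3 tumours (0.28, adjusted p = 0.0465, 3.38% of genes). T and NK cell genes gave Jun higher and Nr4a1 lower (24.6%). Without the 3 tumours 0 of 10 were called by limma with T and NK cell genes, 0 had an unadjusted p under 0.05, and 1.92% of genes were called.

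No member was called against the skeletal muscle score (4.82% of genes) or the nerve score (3.38%). At an unadjusted p under 0.05 by limma there were 0 and 4 of 10, where 18.5% and 22% of genes were. With skin genes Junb, Egr2, Egr3 and Atf3 rose (4 of 10, against 11.2% of genes called and 6.01% higher). Without mid60, whose skin score was 6.46, and mid38 none of the 10 was called, 4 genes were called on the whole array, and 1 member had an unadjusted p under 0.05. The slopes changed sign as well. That of Egr2 was 0.18 log2 per SD over all tumours and -0.05 without mid60 and mid38, that of Egr3 0.15 and -0.04, and that of Atf3 0.29 and -0.06. Over all tumours rho was 0.061 for Egr2, -0.085 for Egr3 and 0.054 for Atf3.

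**Figure D4:**
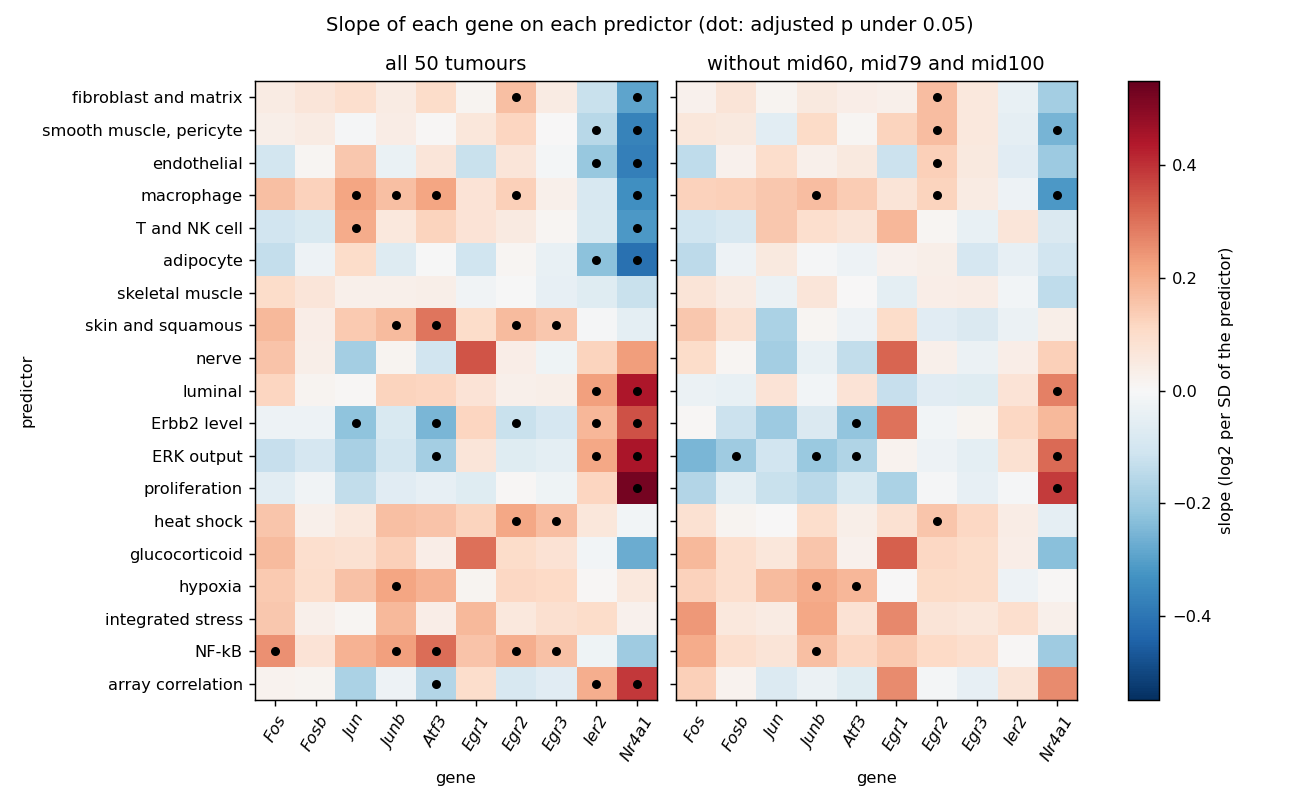
Slope of each member (columns, log2 per SD of the predictor) on each of 19 predictors (rows), over all 50 tumours and without mid60, mid79 and mid100. A dot marks an adjusted p under 0.05. The dots in the skin, adipocyte and array correlation rows are absent from the right panel, while those of Egr2 on matrix genes and Nr4a1 on proliferation are in both.

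The next comparison asked whether the members track ERK output, read from 13 genes that ERK signalling induces in epithelial cells. The list includes the phosphatases Dusp4 and Dusp6, the Sprouty feedback inhibitors, the factors Etv4 and Etv5, Phlda1 and Ccnd1. Ier2 and Nr4a1 rose with the score, Atf3 fell, and 34.6% of all genes were called (20.1% higher and 14.5% lower). Nr4a1 rose by 0.45 log2 per SD (SE 0.082, adjusted p = 1.98e-05 by limma, r = 0.610, rho = 0.560) and Ier2 by 0.21 (SE 0.050, adjusted p = 0.000667). Fos had a slope of -0.13 (SE 0.094, adjusted p = 0.326) and Egr1 of 0.07 (SE 0.139, adjusted p = 0.752). Neither of these genes, both known direct targets of ERK-activated factors, passed the test.

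The ERK output score was -2.73 in mid79, far below the other tumours, and leaving out mid79 changed these calls. Without it Fos, Fosb, Junb and Atf3 fell with the score. Their slopes were -0.31 (SE 0.085, adjusted p = 0.00651), -0.17 (adjusted p = 0.0130), -0.23 (adjusted p = 0.00120) and -0.30 (adjusted p = 3.70e-05), while Ier2 was at 0.09 (adjusted p = 0.172). Without both mid79 and mid60, 4 members fell and 1 rose, where 5.97% of all genes were called lower and 9.08% higher. The share of all genes without mid79 alone is not given here. Without mid60 alone Atf3 was at -0.07 (adjusted p = 0.316). Without mid60, mid79 and mid100, 3 members fell (Fosb, Junb and Atf3) where 2.65% of genes were called lower, and Nr4a1 rose by 0.31 (adjusted p = 0.00971). Fos was then at -0.25 (adjusted p = 0.0648). The ERK output score also moved with other measures. Its r was 0.842 with array correlation, 0.801 with Erbb2 and -0.715 with adipocyte genes, where rho was 0.234, 0.339 and -0.305. It was 0.666 with proliferation (rho = 0.650), 0.645 with luminal genes (rho = 0.328) and -0.629 with endothelial genes (rho = -0.110). The part of each in these slopes was not tested.

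Erbb2 itself gave a like split. Ier2 and Nr4a1 rose and Jun, Egr2 and Atf3 fell with its level (5 of 10, against 31.3% of genes, 16.6% higher and 14.7% lower). Erbb2 was at 9.02 in mid60 and 9.25 in mid79, and without those 2 tumours only Atf3 was called, where 0.477% of genes were. Atf3 fell by 0.22 log2 per SD of Erbb2 (SE 0.044, adjusted p = 0.0152), and over all tumours by 0.25 (r = -0.537, rho = -0.536). Without the 2 tumours 6 of 10 members had an unadjusted p under 0.05 by limma. Over all tumours and without the 2, r was -0.397 and -0.382 for Jun and 0.437 and 0.349 for Ier2. It was 0.480 and 0.287 for Nr4a1, and -0.348 and -0.032 for Egr2.

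The third comparison used measures that can move with tissue handling. The heat shock score held 12 genes such as Hspa1a, Hspa1b and Dnajb1, which protein damage and warming induce. Egr2 and Egr3 rose with it, 2 of 10 where 7.01% of genes were called and 4.33% were higher. Egr2 rose by 0.21 log2 per SD (SE 0.039, adjusted p = 0.000650 by limma, r = 0.609, rho = 0.408), and by 0.15 without mid60, mid79 and mid100 (adjusted p = 0.0130). Egr3 rose by 0.17 (adjusted p = 0.0172), or by 0.12 without mid60 alone, which did not pass (adjusted p = 0.172). Junb had a slope of 0.17 (adjusted p = 0.0669), Fos 0.15 (adjusted p = 0.357) and Egr1 0.12 (adjusted p = 0.686).

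In 1 model with the matrix, ERK output and heat shock scores together, each slope is taken with the other 2 scores held. Egr2 kept its slopes on matrix genes (0.14 log2 per SD, adjusted p = 0.0208) and on heat shock genes (0.19, adjusted p = 0.00121), where 10.8% and 7.1% of genes were called. Egr3 was called with heat shock (0.17, adjusted p = 0.0252). Ier2 (0.21) and Nr4a1 (0.40) were called with ERK output, where 24.2% of genes were. Fos, Fosb, Jun, Junb, Egr1 and Atf3 were called with none of the 3 scores in this model over all tumours. Without mid79, 4 members were called lower with ERK output and none higher. The share of all genes in that joint fit was not computed, so this count cannot be set against the array.

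With hypoxia genes 1 member was called. Junb rose by 0.22 log2 per SD of the hypoxia score (SE 0.055, adjusted p = 0.0389 by limma, r = 0.491, rho = 0.377), where 0.533% of genes were called and 0.51% were higher. Atf3 had a slope of 0.19 (adjusted p = 0.209), and without mid60, mid79 and mid100 both Junb (0.20, adjusted p = 0.0415) and Atf3 (0.18, adjusted p = 0.0424) were called, against 0.765% of genes. Without mid131 and mid75, the tumours with the highest hypoxia scores, neither was called, where 0.41% of genes were. In that setting 4 of 10 members had an unadjusted p under 0.05 by limma. Over all tumours 5 of 10 members and 7.49% of genes had an unadjusted p under 0.05. Jun, Egr2 and Egr3 had slopes of 0.16, 0.11 and 0.11 at unadjusted p under 0.05, and Egr1, Ier2 and Nr4a1 had 0.02, 0.01 and 0.06. Ndrg1 and Vegfa, both induced by low oxygen, rose by 0.40 and 0.29 per SD of Junb.

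No member was called against the glucocorticoid score (2.45% of genes) or against the integrated stress score (0.0111% of genes). At an unadjusted p under 0.05 by limma there were 4 of 10 members and 16.1% of genes for glucocorticoid. For integrated stress there were 1 of 10 members and 10.7% of genes. With 12 NF-kB target genes Fos, Junb, Egr2, Egr3 and Atf3 rose, 5 of 10 where 24.6% of genes were called and 11.9% were higher. Without mid60, mid79 and mid100 only Junb did (0.17 log2 per SD, adjusted p = 0.0412), where 9.12% were. In that setting 6 of 10 members had an unadjusted p under 0.05 by limma. Over all tumours 6 did as well, where 34.7% of genes did. Without mid60 and mid9, the tumours farthest in that score, 0 of 10 were called by limma and 3 had an unadjusted p under 0.05. Array correlation had r = 0.905 with Erbb2 and -0.8 with adipocyte genes (rho = 0.414 and -0.197), so it cannot be read as array quality alone. With array correlation Ier2 and Nr4a1 rose and Atf3 fell (36.4% of genes). Of the 10 members 0 were called by limma without the 3 tumours, 1 had an unadjusted p under 0.05, and 1.19% of genes were called. Fos had r = 0.026 with it (adjusted p = 0.908) and Egr1 had r = 0.095 (adjusted p = 0.632).

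Nr4a1 followed proliferation genes. It rose with their score by 0.53 log2 per SD (SE 0.072, adjusted p = 1.56e-07 by limma, r = 0.719, rho = 0.425), the 1 member called where 19.3% of genes were (11.3% higher). Without mid79 and mid2, which had the lowest proliferation scores, the slope was 0.29 (adjusted p = 0.00359). Against Nr4a1 as predictor 23.4% of genes were called, 13.4% higher and 10.1% lower. All 26 proliferation genes rose with it, led by Rrm2, a ribonucleotide reductase subunit (0.53), Mki67 (0.41) and Top2a (0.45). That count was 25 of 26 without mid60, mid79 and mid100, with 8.55% of all genes called (5.19% higher and 3.35% lower). Tumours mid54 and mid2, with low Nr4a1 at 7.76 and 7.80, stayed in that setting, and no fit left out both. Of 18 macrophage genes 14 fell with Nr4a1, and 12 did without the 3 tumours. Tyrobp, an adaptor of myeloid receptors, fell by 0.29 and Csf1r, the receptor for macrophage growth factor, also by 0.29.

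**Figure D5:**
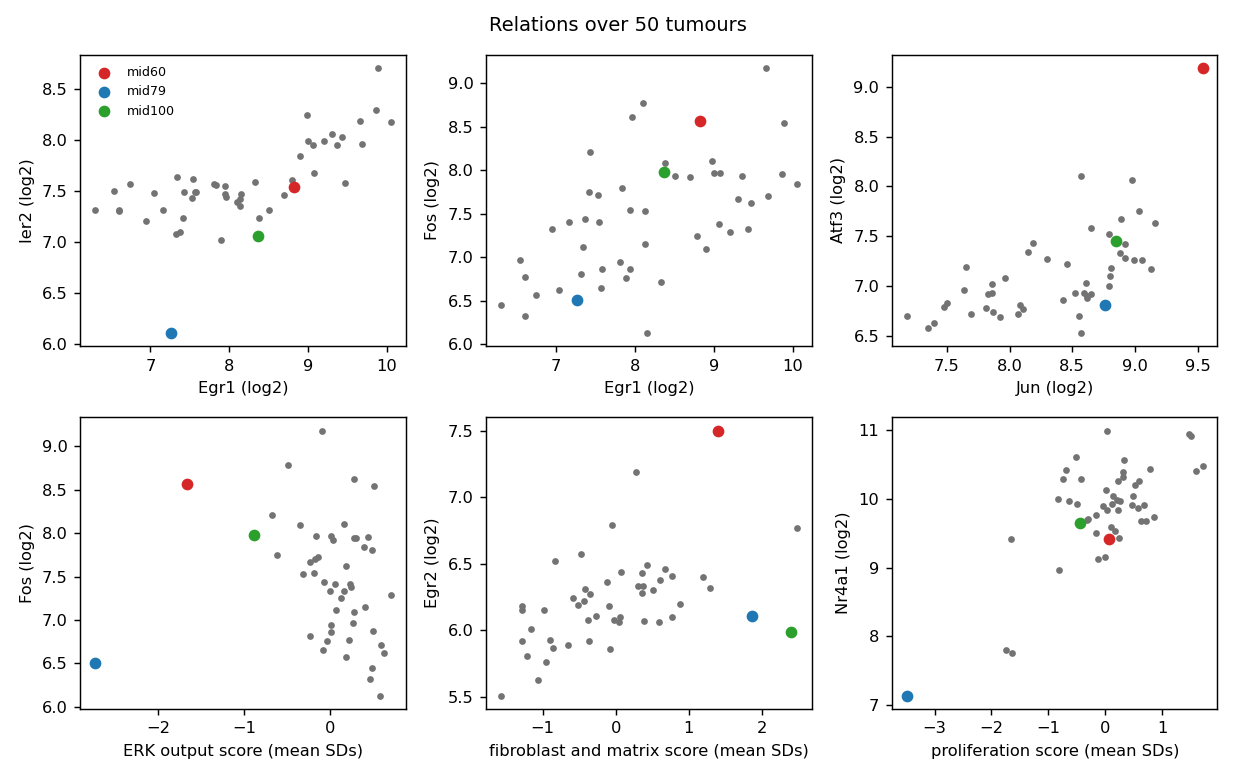
Values of 50 tumours, 1 point each, for Ier2 and Fos against Egr1, Atf3 against Jun, Fos against the ERK output score, Egr2 against the fibroblast and matrix score and Nr4a1 against the proliferation score (scores in SDs, genes in log2). mid79 lies alone at an ERK output score of -2.73, and mid79, mid54 and mid2 hold the lowest Nr4a1 values, under 8.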

How the data were processed

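The authors deposited log2 expression values after RMA (per the submitters' processing notes, which name RMA and the build mm8 with no version or role) for 34472 probe sets and 50 arrays of total RNA. By the platform's annotation 23521 probe sets name 1 gene, while 1814 name several and 9137 no gene. Of the 1-gene probe sets 23328 matched the RefSeq table by Entrez identifier. Genes were tested where their mean reached 4.09 log2, which is the 25th percentile over probe set means. The 50 tumours formed 1 group, and their number limits the precision. Nothing in the labels says how tumours were handled or batched. Members and gene lists were chosen with earlier results of these data known.

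Every gene was regressed on each predictor with limma 3.58.1 (lmFit and eBayes with trend, R 4.3.3), with Benjamini-Hochberg adjustment over all genes and calls under 0.05. A score is the mean of standardised list genes, and genes of a score were left out of its counts. Pearson and Spearman correlations had two-sided permutation tests (100000 permutations), adjusted over 235 relations (45 pairs of members and 10 members with 19 predictors). Named genes were the members, the 3 genes of each list with the largest moderated statistic, and the 10 most and 5 least like the members' mean. Per1 in its slopes on Jun and Atf3 and genes under other observations that are outside this rule were chosen after their values were seen. Alternatives were other filters, other probe sets, repeated quantile normalization, ranks, array weights, medians as scores and tumours left out. List counts without mid60, mid79 and mid100 were added after seeing the data. Tested on simulated data for the fibroblast and matrix score over 18045 genes, the regression recovered 83 of 100 planted slopes of 0.2 and 96 of 100 of 0.5, with 7 false calls. Noise there was drawn for each gene separately, and slopes were planted in genes picked at random. The counts therefore do not give the error rate among correlated genes, nor the recovery for the members, whose SDs are larger than the median. Correlations and figures used scipy 1.17.1 and matplotlib 3.10.9 under Python 3.11.15.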

Additional observations from a re-analysis of the deposited data

How the results depend on the processing

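Counts of members rest on few tumours, and the shares of all genes called moved as well. Without mid60, mid79 and mid100 the share went from 27.2% to 10.1% for the matrix score. It went from 34.6% to 8.65% for ERK output and from 7.01% to 5.1% for heat shock. Without the 2 farthest tumours these shares were 17.9%, 15.1% and 1.94%. Against the matrix score, 1 member lower became 0 with array weights, without mid79 and without mid60, mid79 and mid100. Against ERK output, 2 higher became 1 with array weights, with ranks, without mid79, without the 2 farthest tumours and without the 3, and 1 lower became 2 with repeated quantile normalization, 0 without mid60, 4 without mid79 or the 2 farthest, and 3 without the 3. Against heat shock, 2 higher became 1 with array weights, without mid60, without the 2 farthest and without the 3, and 0 with ranks. In the joint model ERK output gave 1 higher with array weights, ranks and without the 3 and 0 without mid79, in place of 2, and 1 lower with array weights, medians or repeated quantile normalization, 4 without mid79 and 3 without the 3, in place of 0. Heat shock there gave 1 with array weights, without mid60 and without the 3, and 0 with ranks, in place of 2. Shares of all genes in the joint model under these other settings were not computed, so its counts there cannot be set against the array. Further early genes higher with Fos were 6 with array weights or without mid79, 5 without mid100 and 1 with ranks, in place of 3. Calls against the 16 other predictors fell from 34 to 12 without the 3 or the 2 farthest, and ordered pairs of members from 19 to 12 and 9. Without the 3, shares of all genes fell too, as for adipocyte genes (28.9% to 1.31%) and Erbb2 (31.3% to 0.161%). They rose for hypoxia (0.533% to 0.765%), glucocorticoid (2.45% to 2.51%) and integrated stress (0.0111% to 0.0665%). Called slopes on the skin score reversed without the 2 farthest tumours (Junb -0.011, Egr2 -0.053, Egr3 -0.041, Atf3 -0.056 log2 per SD) and, Junb aside, without the 3 (-0.063, -0.081, -0.026). No other called slope recomputed here changed sign, and beyond the tumours left out the causes were not tested. No paired analysis was possible because the labels give 1 group. All members have 1 probe set, so the choice of probe set could not change their levels.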

Other observations

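Of the 38 genes called against Fos, several outside the gene lists fell where Fos was higher. Miga2, which acts in mitochondrial fusion, fell by 0.15 log2 per SD of Fos (SE 0.026, adjusted p = 0.00190 by limma, r = -0.651). Phyh, a peroxisomal enzyme of branched fatty acid oxidation, fell by 0.24 (SE 0.042, adjusted p = 0.00190, r = -0.638). Ndufaf3 and Uqcr11, which serve respiratory complexes, fell by 0.12 and 0.10, and Per3, a clock gene, by 0.28 (adjusted p = 0.0414). Without mid60, mid79 and mid100, Miga2 (adjusted p = 0.0222) and Phyh (0.0114) were still called, while Ndufaf3 (0.0711), Uqcr11 (0.0655) and Per3 (0.0759) were not. Among genes that rose, Cebpd, a bZIP factor induced by glucocorticoids and cytokines, rose by 0.42 (SE 0.082, adjusted p = 0.00899, and 0.0101 without the 3 tumours), Bcl3 by 0.25 and Tnfaip3, an inhibitor of NF-kB, by 0.18. Against Egr1 the RNA helicase gene Ddx5 fell by 0.19 (SE 0.036, adjusted p = 0.00705, r = -0.601). These genes were chosen after their values were seen.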
